A study of Oryza sativa Japonica Group with 4 samples.

Results

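The core histone genes of rice were followed in endosperm that ripened at high temperature and in endosperm kept at control temperature. They were taken as every transcript model whose description in the deposited table contains the words "core histone". No measured value entered this rule, though earlier results of these data were known when it was chosen. The rule gave 47 transcript models of 43 genes, out of 67393 models of 56797 genes in the table. Plants of the japonica cultivar Nipponbare were moved 5 days after pollination to a room at 35°C by day and 28°C by night, or kept at 28°C by day and 22°C by night. Seeds were taken after 5 days of treatment. Poly(A) RNA was sequenced as 2 libraries from high temperature and 2 from control, numbered replicate 1 and replicate 2 in each. The labels name the tissue as endosperm, and the paper's methods speak of fresh seeds and of RNA from endosperm. Nothing in the labels says whether the replicates came from separate plants, so the p-values measure the spread between these libraries, which may be technical.

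Core histones are the proteins around which DNA is wound. Each nucleosome holds a pair of each of H2A, H2B, H3 and H4, and the linker histone H1 binds the DNA between nucleosomes. A cell makes most of its core histones while it copies its DNA, in S phase, and replacement variants are made outside S phase as well. In animals most S-phase histone mRNAs carry no poly(A) tail. Plant histone mRNAs do carry one, so poly(A) libraries of rice can hold them. In cereals the cells of the starchy endosperm stop dividing as the grain fills, and many go on copying their DNA without division.

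The descriptions name the domain shared by H2A, H2B, H3 and H4 and do not say which of the 4 a transcript encodes. A protein described by this domain need not be a core histone, and this was not checked for any member. None of the 43 gene IDs matched the RefSeq gene table used here, so the members are given by ID, without histone type, position or sequence. The number after "Os" in an ID is the chromosome, and the IDs placed 7 genes each on chromosomes 1, 3 and 5 and none on chromosome 11. The words also leave out 17 transcripts that the table describes by name as histone H3 or H2A. These were looked at separately.

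The column sums of the reads were 7813601 and 6395533 in high temperature replicates 1 and 2, and 11492692 and 8022185 in control replicates 1 and 2. LOC_Os09g01000.1 and LOC_Os09g00999.1 together held 35.2% and 10.05% of the reads in high temperature replicates 1 and 2 and 8.51% and 25.9% in control replicates 1 and 2. High temperature replicate 1 therefore resembled control replicate 2 in this respect, and high temperature replicate 2 resembled control replicate 1. Levels are given as RPKM, reads scaled to transcript length and library size, computed here from the reads with library sizes adjusted by TMM (a trimmed mean of ratios between libraries). Summed over 46 glutelin and prolamin transcripts, the storage proteins that define starchy endosperm, the TMM-scaled CPM (reads scaled to library size only) was 265293 and 358679 at high temperature and 280985 and 491449 in the controls. The sums for markers of other parts of the seed were lower. They do not measure the share of those parts in the samples, since the lists hold different transcripts. The 41 transcripts described as oleosin or late embryogenesis abundant, typical of embryo and aleurone, summed to 2137 and 1533 CPM at high temperature and 1109 and 2932 CPM in the controls, and the 27 chlorophyll A-B binding transcripts of green pericarp to 1712 and 835.5 CPM at high temperature and 1207 and 974.8 CPM in the controls. The embryo and aleurone sum was thus highest in control replicate 2 and next in high temperature replicate 1. Its part in the histone levels was not tested.

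The 47 core histone transcripts together held 3739 and 2494 reads in high temperature replicates 1 and 2, and 7238 and 3280 reads in control replicates 1 and 2. On the TMM scale their sum was 537.1 and 346.7 CPM at high temperature, against 477.3 and 540.6 CPM in the controls. High temperature replicate 2 stood lowest, and the other high temperature library lay between the controls. The mean was 441.9 ± 134.6 CPM at high temperature and 509.0 ± 44.8 CPM in the controls (SD, n = 2 each), a ratio of 0.868. The ratio was 1.06 with high temperature replicate 2 left out and 0.681 with high temperature replicate 1 left out, so its direction rested on high temperature replicate 2. In a bulk sample, fewer cells that make histone mRNA and less histone mRNA per cell cannot be told apart.

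Of the 47 transcripts, 3 had no read in any library, LOC_Os02g25940.1, LOC_Os04g13530.1 and LOC_Os05g38760.1. A further pair, LOC_Os04g58680.1 and LOC_Os05g38560.1, had 1 and 2 reads in all. The other 42, from 38 genes, had at least 1 CPM in at least 2 libraries and entered the test of temperature. Their mean over the 4 libraries ran from 1.01 RPKM for LOC_Os06g45640.1 to 54.8 RPKM for LOC_Os07g36140.1. The median was 8.47 RPKM, against 2.91 RPKM for all 27358 transcripts tested. LOC_Os07g36140.1 stood at percentile 97.9 of those transcripts, and LOC_Os06g45640.1 at percentile 17.0. Reads were not spread evenly among the members, and the 12 with the highest mean RPKM, from 11 genes, held 61.0% of all core histone reads.

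**Figure D1:**
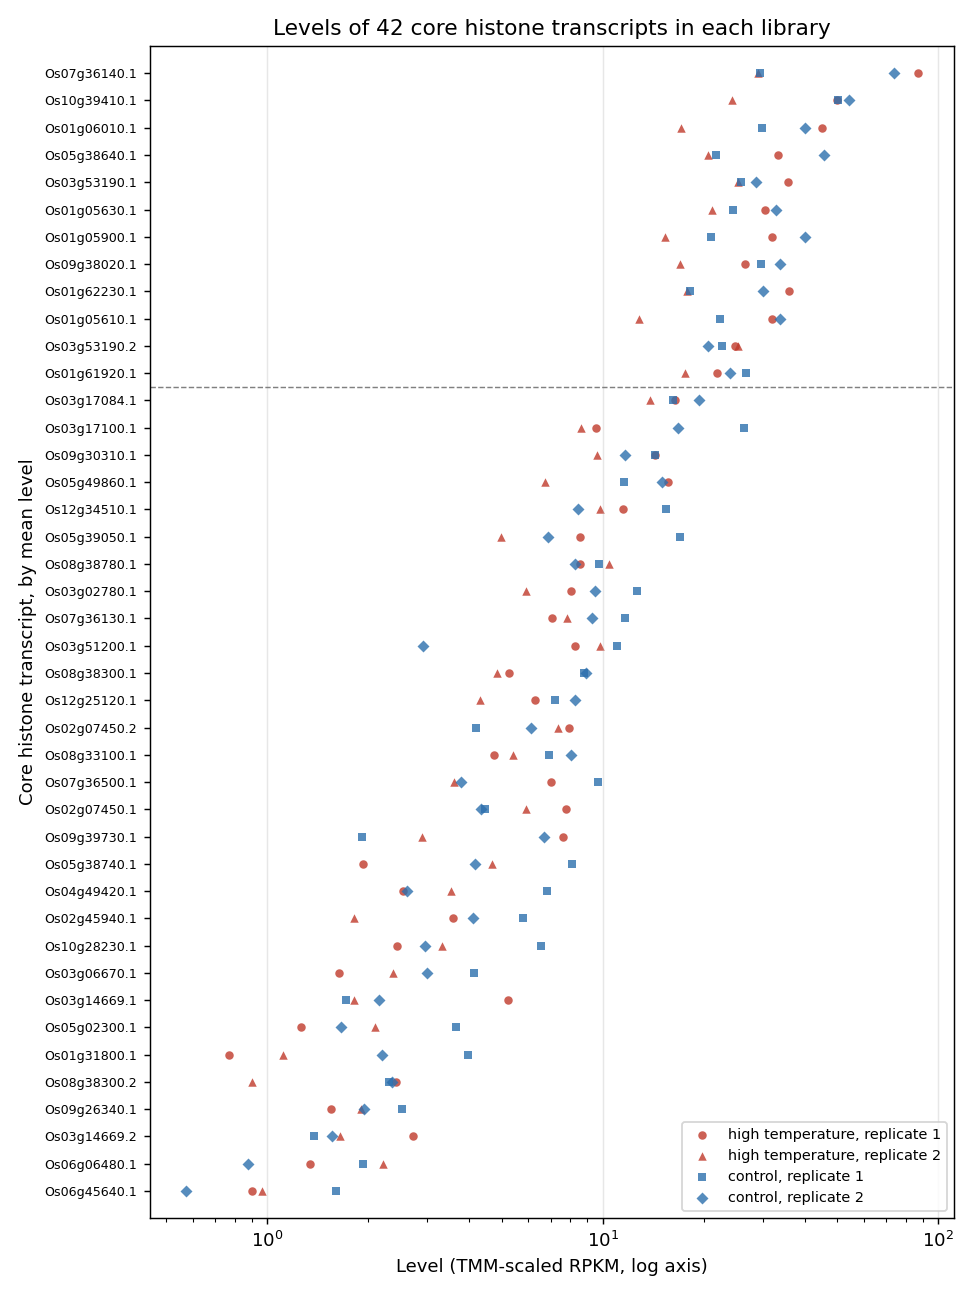
Level of each of the 42 tested core histone transcripts (rows, ordered by mean) in the 4 libraries, as TMM-scaled RPKM on a log axis; the dashed line closes the 12 highest. Among these 12, high temperature replicate 2 is lowest in 11, and among the 30 below the line control replicate 1 is highest in 17.

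LOC_Os07g36140.1, the member with the highest mean, had 87.0 and 29.0 RPKM at high temperature, against 29.4 and 73.9 RPKM in the controls. LOC_Os10g39410.1 had 50.02 and 24.2 RPKM at high temperature, against 50.3 and 54.3 RPKM in the controls. LOC_Os01g06010.1 had 44.9 and 17.1 RPKM at high temperature and 29.8 and 39.9 RPKM in the controls. In each of the 3, high temperature replicate 2 was the lowest library, and the high temperature replicates lay further apart than the means of the temperatures. High temperature replicate 2 was also lowest in LOC_Os05g38640.1, with 33.2 and 20.6 RPKM at high temperature and 21.7 and 45.5 RPKM in the controls. It was lowest too in LOC_Os01g05900.1, with 31.9 and 15.3 RPKM at high temperature and 21.0 and 40.0 RPKM in the controls, and LOC_Os01g62230.1, with 35.8 and 17.8 RPKM at high temperature and 18.2 and 30.1 RPKM in the controls. For these 3, high temperature replicate 1 and control replicate 2 were the high libraries and the temperatures overlapped.

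The neighbours LOC_Os01g05610.1 and LOC_Os01g05630.1 also overlapped between the temperatures. LOC_Os01g05610.1 had 31.9 and 12.8 RPKM at high temperature and 22.3 and 33.7 RPKM in the controls. LOC_Os01g05630.1 had 30.4 and 21.2 RPKM at high temperature and 24.5 and 32.9 RPKM in the controls. The temperatures did not overlap in 4 of the 12. Of all 27358 transcripts tested, 17.7% had both high temperature libraries below both controls and 19.1% above both. LOC_Os10g39410.1, above, was lower at high temperature by a small margin. LOC_Os09g38020.1, with 26.5 and 17.0 RPKM at high temperature against 29.6 and 33.8 RPKM in the controls, and LOC_Os01g61920.1, with 21.9 and 17.5 RPKM at high temperature against 26.8 and 23.9 RPKM in the controls, were lower too. The fourth was higher. It was LOC_Os03g53190.2, with 24.8 and 25.3 RPKM at high temperature against 22.6 and 20.6 RPKM in the controls. The other model of that gene, LOC_Os03g53190.1, had 35.6 and 25.3 RPKM at high temperature and 25.8 and 28.6 RPKM in the controls. None of the 12 had an unadjusted p under 0.05 in the test described next.

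The replicates of a temperature thus differed in a shared way among the abundant members. The ratio of high temperature replicate 1 over replicate 2 had a median of 1.80 in the 12 highest, and that of control replicate 2 over replicate 1 a median of 1.34. Both ratios were above 1 in 10 of the 12 (83.3%), against 31.1% of the 27264 tested transcripts with reads in all 4 libraries. The other 30 members behaved differently, with medians of 1.10 and 0.759 and both ratios above 1 in 9 of 30. Over the 42 members the log2 ratios had a Pearson correlation of 0.64 and a Spearman correlation of 0.64, and over the 27264 transcripts of 0.34 and 0.31. These describe transcripts of the same 4 libraries, which share depth and composition, and are not correlations over samples. The median level of the members was also higher than that of all tested transcripts (8.47 against 2.91 RPKM). No set of matched level was compared for these ratios and correlations. The libraries that were high for the abundant members were those in which LOC_Os09g01000.1 and LOC_Os09g00999.1 held 35.2% and 25.9% of the reads. Whether this share had a part in the histone differences was not tested.

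**Figure D2:**
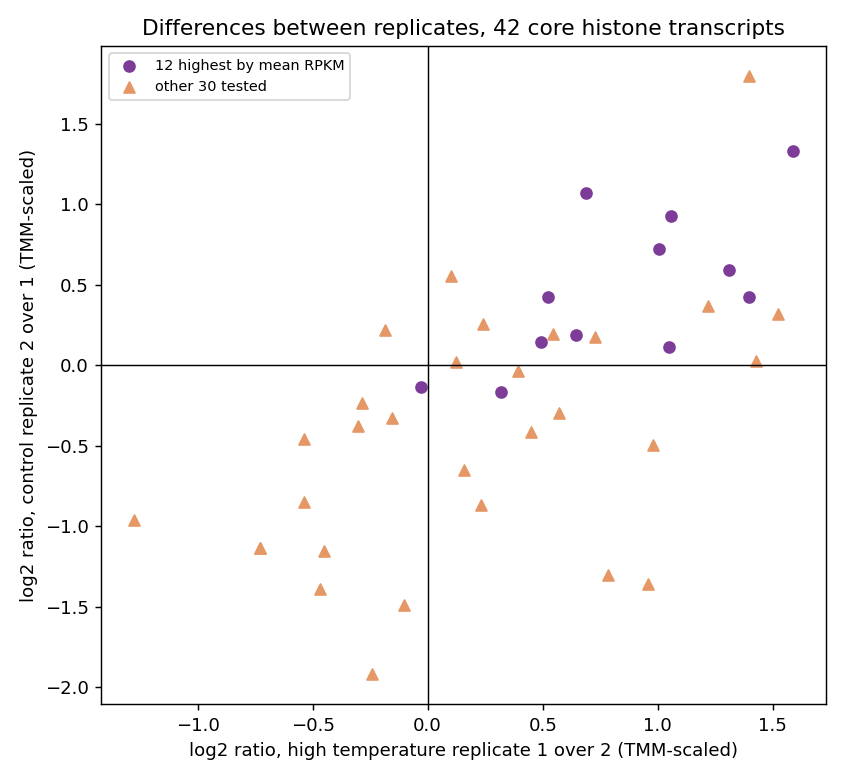
Differences between the replicates of each temperature for the 42 tested core histone transcripts, as the log2 ratio of high temperature replicate 1 over 2 (horizontal) and of control replicate 2 over 1 (vertical), both TMM-scaled. Of the 12 highest members (circles) 10 lie to the upper right of both zero lines, against 9 of the other 30 (triangles).

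The effect of temperature was tested on the reads with edgeR's quasi-likelihood test over 27358 transcripts. The log2 fold change is high temperature over control. Core histone transcripts lay mostly below 0, with 30 of 42 lower (71.4%) and 12 higher, where 49.8% of all transcripts were lower and 50.2% higher. The median log2 fold change of the members was -0.35, against 0.00 for all transcripts. Both high temperature libraries lay below both controls for 13 members (31.0%), against a background of 17.7%, and above both controls for 4 (9.52%), against 19.1%. With 1 transcript per gene, 29 of 38 genes were lower.

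No member passed a Benjamini-Hochberg adjusted p of 0.05, and neither did any other transcript (0.0% of those tested). An unadjusted p under 0.05 was reached by 3 members (7.14%), all lower, against 6.94% of all transcripts in either direction, 4.15% higher and 2.79% lower. In other fits the share of members in either direction was 18.2% without the filter on low counts, against 6.99% of all transcripts, and 24.4% without control replicate 2, against 11.6%. With DESeq2 it was 2.38%, against 3.26%. The shift of the median also rested in part on 1 library. Leaving out high temperature replicate 2 gave -0.10, with 23 of 40 lower, and leaving out high temperature replicate 1 gave -0.48, with 35 of 42 lower. The median was -0.33 without control replicate 1, and leaving out control replicate 2 gave -0.44.

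By level, the 12 highest had a median log2 fold change of -0.24, with 8 lower, and the other 30 a median of -0.45, with 22 lower. The difference between them was not tested, and their order turned when control replicate 1 or high temperature replicate 1 was dropped. Transcripts outside the members in the same ranges of mean RPKM had medians of -0.026 (1192 transcripts) and 0.00 (20877 transcripts). For the 12 highest the sign turned with the library left out, to 0.11 without control replicate 2 and to 0.12 when high temperature replicate 2 was dropped, and the median was -0.76 when high temperature replicate 1 was dropped and -0.36 (10 of 12 lower) when control replicate 1 was. For the other 30 it was below 0 in each of these fits, from -0.54 when control replicate 2 was dropped to -0.17 without control replicate 1, the library in which 17 of the 30 were highest (56.7%, against 25.5% of all transcripts).

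**Figure D3:**
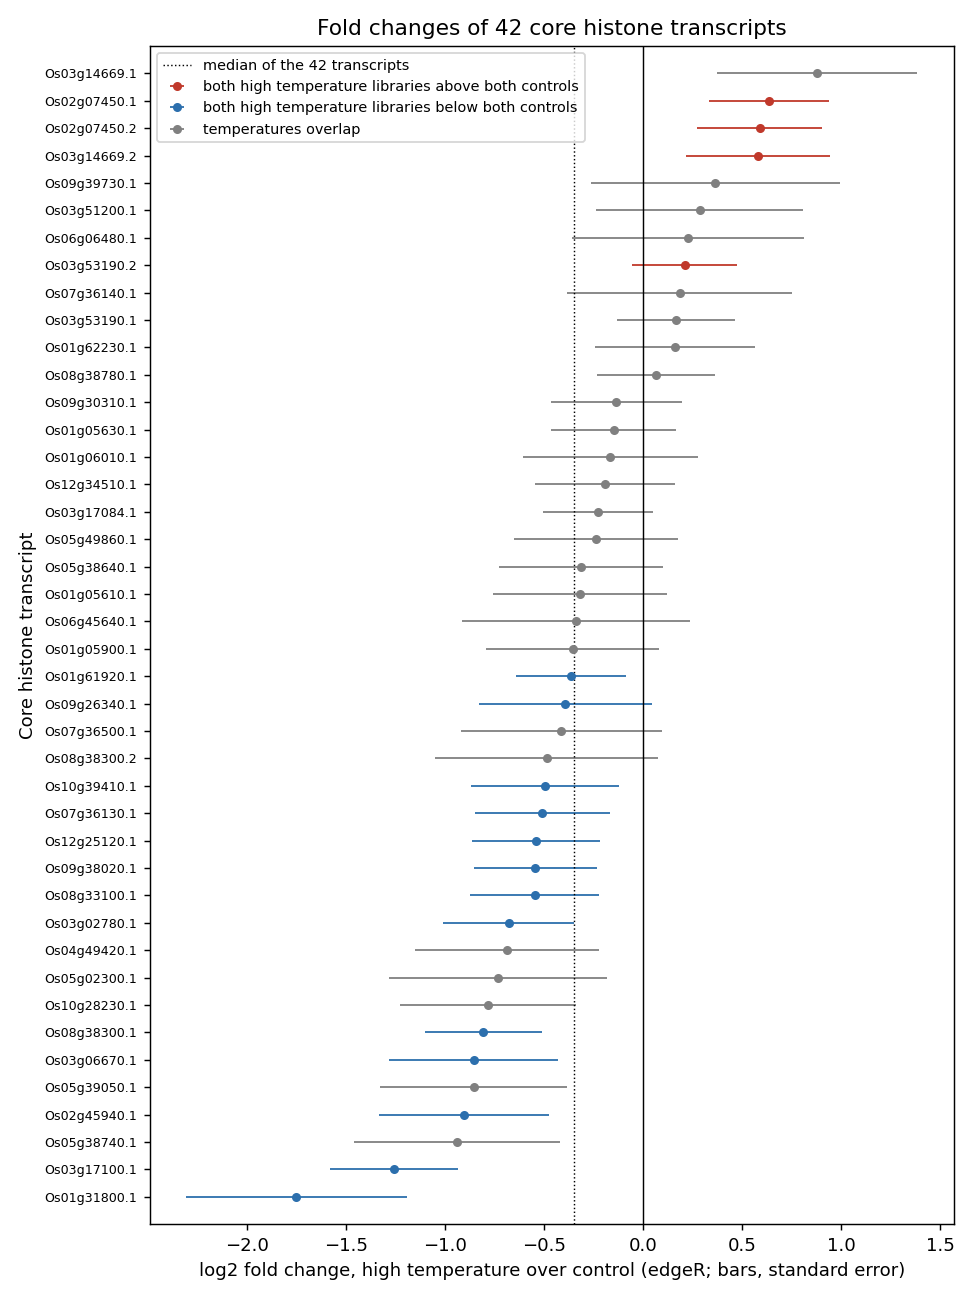
Log2 fold change of the 42 tested core histone transcripts, high temperature over control (points; bars are the standard error from edgeR), with the members whose 4 libraries separate by temperature in colour. The median, -0.35, is dotted; 13 members have both high temperature libraries below both controls and 4 have both above.

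LOC_Os03g17100.1 had the smallest p of the members. It had 55 and 51 reads at high temperature and 330 and 84 reads in the controls, or 9.57 and 8.58 RPKM at high temperature against 26.3 and 16.8 RPKM in the controls. Both high temperature libraries lay below both controls. The log2 fold change was -1.26 (standard error 0.32, unadjusted p = 0.00448, adjusted p = 0.513, edgeR), a level of 0.418 times the control. Its adjusted p was 0.0399 in edgeR without the filter on low counts, where 0.272% of 44411 transcripts were called lower, and 0.0161 without control replicate 2, where 0.241% of 26947 were called lower. Over all alternatives its adjusted p ran from 0.00391 to 0.99998. The lowest came from an edgeR fit that paired replicate 1 of each temperature with replicate 2 of the other, chosen after the data were seen. Without control replicate 1 its log2 fold change was -0.89.

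LOC_Os01g31800.1 had the largest difference. It had 4 and 6 reads at high temperature and 45 and 10 reads in the controls, or 0.767 and 1.11 RPKM at high temperature against 3.96 and 2.20 RPKM in the controls. The log2 fold change was -1.75 (standard error 0.56, unadjusted p = 0.0136, adjusted p = 0.599, edgeR), on few reads. LOC_Os08g38300.1 was more even within each temperature, with 5.26 and 4.83 RPKM at high temperature against 8.78 and 8.90 RPKM in the controls. Here the gap between the temperatures was larger than the spread within either. The log2 fold change was -0.81 (standard error 0.30, unadjusted p = 0.0256, adjusted p = 0.669, edgeR). The second model of this gene, LOC_Os08g38300.2, had 2.42 and 0.900 RPKM at high temperature and 2.31 and 2.35 RPKM in the controls, so its libraries overlapped.

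Next lowest in log2 fold change stood LOC_Os05g38740.1 and LOC_Os02g45940.1. LOC_Os05g38740.1 had 1.93 and 4.67 RPKM at high temperature and 8.09 and 4.16 RPKM in the controls, which overlapped (log2 fold change -0.94, standard error 0.52, adjusted p = 0.792, edgeR). Its value ran from -1.74 without high temperature replicate 2 to -0.33 without control replicate 1. LOC_Os02g45940.1 had 3.57 and 1.81 RPKM at high temperature against 5.78 and 4.10 RPKM in the controls, which did not overlap (log2 fold change -0.90, standard error 0.43, adjusted p = 0.741, edgeR), and its value ran from -1.47 without high temperature replicate 1 to -0.52 without replicate 2. The remaining members with both high temperature libraries below both controls, besides the 3 among the 12 highest, had smaller or less certain differences. They were LOC_Os03g06670.1, LOC_Os03g02780.1, LOC_Os08g33100.1, LOC_Os12g25120.1, LOC_Os07g36130.1 and LOC_Os09g26340.1, with log2 fold changes from -0.85 to -0.39.

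Among the members with a log2 fold change above 0, the 4 largest belonged to 2 genes. LOC_Os02g07450.1 had 7.76 and 5.91 RPKM at high temperature against 4.45 and 4.34 RPKM in the controls, and its log2 fold change was 0.63 (standard error 0.30, adjusted p = 0.742, edgeR). LOC_Os02g07450.2 had 7.90 and 7.36 RPKM at high temperature against 4.17 and 6.12 RPKM in the controls, and here the log2 fold change was 0.59 (standard error 0.31, adjusted p = 0.787, edgeR). In both models the temperatures did not overlap. LOC_Os03g14669.1 had 5.20 and 1.81 RPKM at high temperature and 1.72 and 2.15 RPKM in the controls, and its log2 fold change, 0.88 (standard error 0.51, adjusted p = 0.802, edgeR), rested on high temperature replicate 1 (-0.070 without it). LOC_Os03g14669.2 had 2.72 and 1.65 RPKM at high temperature against 1.38 and 1.56 RPKM in the controls, and its log2 fold change was 0.58 (standard error 0.36, adjusted p = 0.823, edgeR), or 0.17 without high temperature replicate 1. The value of LOC_Os02g07450.2 was 0.31 without control replicate 1.

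The 4 models of LOC_Os02g07450 and LOC_Os03g14669 were 1380 to 2532 bases long, and the 42 tested members 408 to 2532 bases, with a median of 855. Whether either gene encodes a core histone was not checked. Of the 38 tested genes, 4 had 2 tested models, and in each the models had the same sign, above 0 for LOC_Os02g07450, LOC_Os03g14669 and LOC_Os03g53190 and below 0 for LOC_Os08g38300. Models of a gene share exons, so 6 of the 12 values above 0 came from 3 genes and are not separate measurements. The sources used here do not give the rule that assigned a read from a shared exon to a model.

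Several members carry neighbouring locus numbers, which in this numbering run along the chromosome. Taking genes whose numbers lie within 500 of the next, a distance chosen after the IDs were seen, 18 of the 43 genes fell into 6 runs. These runs held 8 of the 11 genes of the 12 highest transcripts. LOC_Os01g05610, LOC_Os01g05630, LOC_Os01g05900 and LOC_Os01g06010 formed a run in which every gene was among the highest, with means from 25.2 to 32.9 RPKM. The run on chromosome 5 was uneven. LOC_Os05g38640.1 had a mean of 30.2 RPKM, while LOC_Os05g38740.1 had 4.71 RPKM, LOC_Os05g38560.1 had 2 reads and LOC_Os05g38760.1 had none.

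LOC_Os07g36130.1 and LOC_Os07g36140.1 bear adjacent numbers and are both 408 bases long. LOC_Os07g36130.1 had 7.04 and 7.84 RPKM at high temperature against 11.6 and 9.29 RPKM in the controls, far below its neighbour in each library. The reads of LOC_Os07g36140.1 over those of LOC_Os07g36130.1 were 12.3 and 3.70 at high temperature and 2.53 and 7.96 in the controls. The ratio was again high in high temperature replicate 1 and control replicate 2. A pair on chromosome 3 also differed. LOC_Os03g17084.1, with 16.4 and 13.9 RPKM at high temperature and 16.1 and 19.3 RPKM in the controls, overlapped between the temperatures, while its neighbour LOC_Os03g17100.1 did not. Histone genes of a type are similar in sequence. The paper states that uniquely mapped reads were counted, so reads that fit several copies would be missing from these values.

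Histones that the words left out were compared next. Of the 17 transcripts described by name as histone H3 or H2A, a list added after the descriptions were seen, 10 were tested, all of them H3. Of these, 8 were lower at high temperature and 7 had both high temperature libraries below both controls (70.0%, against 17.7% of all transcripts), with a median log2 fold change of -0.77. An unadjusted p under 0.05 was reached by 5, all lower, where 2.79% of all transcripts were, and an adjusted one by none. LOC_Os06g06460.1 had the smallest p, with 1.53 and 1.62 RPKM at high temperature against 5.51 and 4.001 RPKM in the controls (log2 fold change -1.61, standard error 0.38, adjusted p = 0.463, edgeR). The abundant ones differed less. LOC_Os06g04030.1 had 136.2 and 121.9 RPKM at high temperature against 180.2 and 169.1 RPKM in the controls, and LOC_Os03g27310.1 had 117.7 and 149.6 RPKM at high temperature and 145.9 and 125.0 RPKM in the controls, which overlapped. Without control replicate 1 the median of the 10 was -0.42. In edgeR without the filter on low counts an adjusted p under 0.05 was reached by 3 of 16, where 365 of 44411 transcripts reached it.

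The linker histones did not share this direction in every library. LOC_Os06g04020.1, described as histone H1, had 73.9 and 17.9 RPKM at high temperature and 42.3 and 104.5 RPKM in the controls. LOC_Os04g18090.1, also histone H1, had 74.6 and 16.5 RPKM at high temperature and 27.8 and 52.7 RPKM in the controls. Both were high in high temperature replicate 1 and control replicate 2, as the abundant core histones were, and over a wider range. The third, LOC_Os08g33190.1, had 2.43 and 1.96 RPKM at high temperature and 1.82 and 2.44 RPKM in the controls. The temperatures overlapped in all 3. The median of the 3 was 0.077, and its sign turned with the library left out, to -1.28 without high temperature replicate 1 and -0.22 without control replicate 1.

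Transcripts whose descriptions name DNA replication, DNA polymerases and related proteins were set beside the histones, since the bulk of histone synthesis accompanies replication. The words do not tell which polymerases copy nuclear DNA, and they took in those described as DNA polymerase lambda, I and V. Of 65 tested transcripts described as MCM helicase subunits, origin recognition complex, DNA polymerase, replication factors, PCNA, ribonucleotide reductase and the like, 52 were lower and 13 higher, with a median log2 fold change of -0.41. Both high temperature libraries lay below both controls in 21 (32.3%, against 17.7% of all transcripts). With 1 transcript per gene, 41 of 52 were lower. An unadjusted p under 0.05 was reached by 7 of the lower and 1 of the higher. Of all transcripts, 2.79% were lower and 4.15% higher at that p. The 7 included LOC_Os06g13020.1 and LOC_Os06g13020.2, models of 1 gene described as DNA polymerase lambda. An adjusted p under 0.05 was reached by none of the 65. In other fits an unadjusted p under 0.05 was reached by 1 with DESeq2 (3.26% of all transcripts) and 1 with limma (2.71%). It was reached by 2 with the replicate block (3.71%), 2 with library totals only (2.42%) and 16 of 81 without the filter on low counts (6.99%). The direction of this list rested on control replicate 1, without which the median was 0.024 and 25 of 53 were lower. The core histone median was -0.33 in that fit, against -0.35 with all libraries. The 12 highest members moved there from -0.24 to -0.36, and the other tested members from -0.45 to -0.17. Without high temperature replicate 2 the core histone median was -0.10 and that of the replication list -0.48. The difference between the lists was not tested.

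The medians of proteins that handle histones did not show a shift of this size. Of 8 tested transcripts of the histone chaperones FACT (subunits SSRP1 and SPT16) and ASF1, which place histones on DNA, 5 were higher and 3 lower, with a median log2 fold change of 0.16. That median was -0.034 without high temperature replicate 2. Of 48 tested transcripts of enzymes or complexes that modify histones, mostly deacetylases and methyltransferases, 27 were higher and 21 lower, with a median of 0.021. An unadjusted p under 0.05 was reached by 5 of the 48 modifiers, all higher, where 4.15% of all transcripts were. All 5 were described as histone deacetylases, and LOC_Os06g38470.2 and LOC_Os06g38470.3 are models of 1 gene. LOC_Os02g12350.1 had 18 and 48 reads at high temperature against 2 and 1 in the controls (log2 fold change 4.90, standard error 0.74, adjusted p = 0.147, edgeR). No transcript of either list reached an adjusted p under 0.05.

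**Figure D4:**
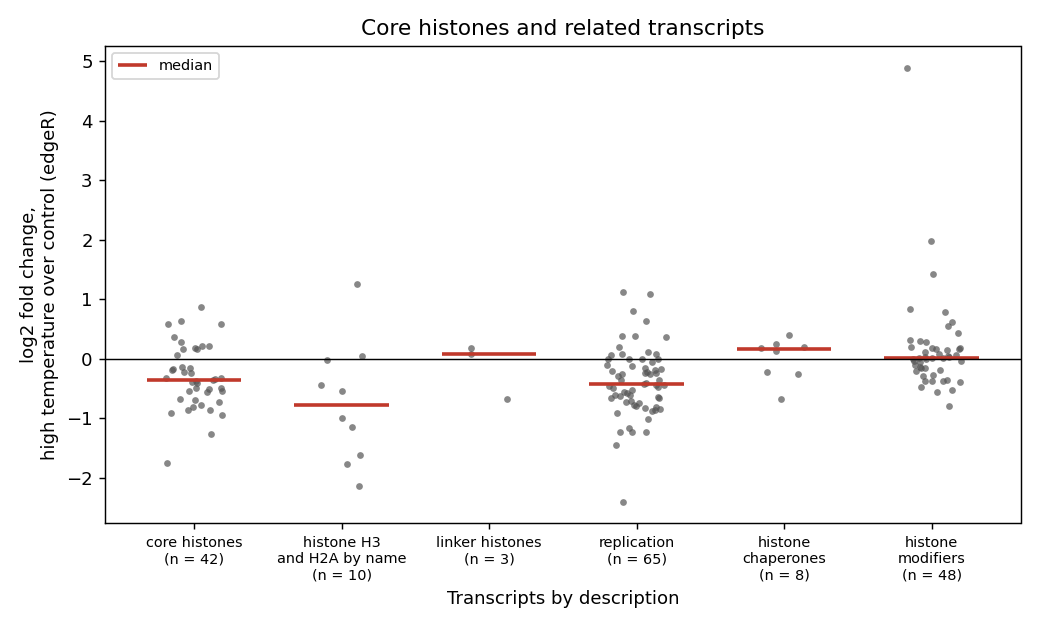
Log2 fold change at high temperature over control of each tested transcript (points, spread sideways at random) in the core histones and 5 related lists, with the median of each list as a bar. The medians are -0.35 for core histones, -0.77 for histone H3 by name, 0.077 for linker histones (-1.28 without high temperature replicate 1), -0.41 for replication, 0.16 for histone chaperones and 0.021 for histone modifiers.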

How the data were processed

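The authors deposited 1 table with the read counts of each transcript model in the 4 libraries, described in the paper as uniquely mapped reads over exons. Aligner, build and annotation release are not given in the sources used here. NA counts (26717 models in each high temperature library, none in control replicate 1, 29117 in control replicate 2) were read as 0. In the deposited column headed RPKM of control replicate 1, used for this check only, the values (treated as a score) equalled reads times length for all 39719 models with reads (relative tolerance 0.001), so RPKM was recomputed from counts for every library. The other 3 columns of values were not used.

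Counts were fitted with edgeR 4.0.16 in R 4.3.3 (TMM, quasi-likelihood test, no block) on models that reached 1 CPM in 2 or more libraries, with Benjamini-Hochberg adjustment over all. A standard error is the log2 fold change over the square root of F. After the fits, the edgeR fit was also run on counts simulated from the overall means and spread of these data. They lacked the differences in composition between the libraries and are not used as support. Python 3.11.15, limma 3.58.1 and DESeq2 1.42.0 served for summaries and alternatives. Named were the 12 highest members, the 4 highest and 4 lowest log2 fold changes, members with an unadjusted p under 0.05, and models of a gene that disagreed in sign (none did); others were chosen after their values were seen. Lists were found by words in the descriptions. From the replication list 8 models were dropped and from the chaperones 2 (RNA-directed DNA polymerase and HIRAN, matched by letters only); with them the medians were -0.41 and 0.16. Members and lists were chosen with earlier results of these data known.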

Additional observations from a re-analysis of the deposited data

How the results depend on the processing

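With 2 libraries per temperature, single libraries limit every difference here. The count of all transcripts called was 0 in the edgeR test, with 1900 at an unadjusted p under 0.05. It was 34 with library totals only, 58 with DESeq2, 365 without the filter on low counts, 59 with limma on log2(RPKM + 1), and 0 to 354 when 1 library was left out. Core histone members called numbered 1 of 44 without the filter, where 365 of 44411 transcripts were called. Members with an unadjusted p under 0.05 numbered 1 with DESeq2 (2.38%, against 3.26% of all transcripts), 8 without the filter (18.2%, against 6.99%), 1 with limma (2.38%, against 2.71%), and 2 to 10 when 1 library was left out (5.13%, against 7.38%, without control replicate 1, and 24.4%, against 11.6%, without control replicate 2). Members with a value above 0 numbered 7 to 17, the member median ran from -0.48 to -0.10, and the summed ratio ran from 0.681 to 1.06 over the same 4 fits. The cause of these changes was not tested.

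Same-numbered replicates deviated in opposite directions (correlation -0.34 over 27264 transcripts). With the replicate block 0 transcripts were called, and the member median was -0.35 with 2 members at an unadjusted p under 0.05 (4.76%, against 3.71%). A crossed replicate block, chosen after the data were seen, called 828 of 27358 transcripts and 1 of 42 members. At an unadjusted p under 0.05 there were 12 members (28.6%, against 14.1% of all transcripts).

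Of 21 named transcripts, 12 kept their sign in each fit that gave them a value, and the other 9 changed it only when a library was left out. Of the 21, 7 had no value in at least 1 of the 15 fits. The values ran from -0.82 to 0.98 for LOC_Os07g36140.1, from -1.03 to 0.35 for LOC_Os01g06010.1, from -0.43 to 0.56 for LOC_Os01g62230.1, from -0.76 to 0.31 for LOC_Os05g38640.1, from -0.44 to 0.074 for LOC_Os01g05630.1, from -0.98 to 0.17 for LOC_Os01g05900.1, from -0.10 to 0.37 for LOC_Os03g53190.1, from -0.070 to 1.42 for LOC_Os03g14669.1 and from -1.12 to 0.17 for LOC_Os01g05610.1.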
